A study of Mus musculus with 5 samples.

Results

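Gfap-positive astrocyte nuclei are the nuclei of the mouse dentate gyrus that carried RNA of astrocyte genes together with RNA of Gfap. The dentate gyrus is the part of the hippocampal formation where granule neurons receive cortical input. The members were chosen on their own measured RNA. A barcode was a member when it had at least 500 UMIs (molecule tags, 1 for each RNA molecule that was captured), at most 5% mitochondrial UMIs, at least 4 of 9 astrocyte genes detected (Aqp4, Gja1, Gjb6, Slc1a2, Slc1a3, Ntsr2, Slc4a4, Acsbg1 and Slc7a10), at least 1 Gfap UMI, and at most 1 UMI summed over Mog, Slc17a7, Gad2 and Pdgfra, which mark oligodendrocytes, excitatory neurons, inhibitory neurons and oligodendrocyte precursors. This gave 615 members of 32199 kept nuclei barcodes and of 95918 barcodes deposited in the whole series. The 129 members of WT-naive came from untrained wild-type mice. The 243 members of WT-CFC came from wild-type mice 14 days after contextual fear conditioning (CFC), in which a foot shock is paired with a place. The other 243 came from a library labelled KO-CFC. Its mice were also taken 14 days after CFC, and its labels disagree on the deleted gene, with Csf2rb2 in the title and Csf2rb3 in the genotype field. There were 10 mice per group, and nuclei of each group, from frozen tissue, made up 1 library. The labels give no strain, sex or age, and do not state in which cells the gene was deleted.

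Gfap encodes the intermediate filament protein by which astrocytes are most often stained. In the hippocampus it is low in astrocytes that tile the neuropil, the protoplasmic type, and high in fibrous astrocytes, in astrocytes of the limiting membrane, in radial glia-like stem cells of the dentate gyrus and in astrocytes that react to injury or inflammation. Reactive astrocytes raise Gfap together with Vim, which encodes vimentin, and in inflammation with complement and antigen presentation genes. IL-3 acts through a receptor made of the alpha subunit Il3ra and a beta subunit, Csf2rb or, in the mouse, Csf2rb2.

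The members had the markers of their label. Their Aqp4 level, the water channel of astrocyte endfeet, was 159, 197 and 249 CPM (counts scaled to a common total of 1000000 UMIs summed over the nuclei) in WT-naive, WT-CFC and KO-CFC, against 2.28, 3.10 and 6.23 CPM in barcodes that were not astrocyte nuclei. Gja1, the gap junction protein connexin 43, was at 435, 724 and 370 CPM in members and at 9.30, 15.5 and 12.7 CPM in those other barcodes. Slc1a3, the glutamate transporter GLAST, was at 1478, 2177 and 1443 CPM in members, and Slc4a4, a bicarbonate cotransporter, at 747, 1011 and 592 CPM. Both stood higher in WT-CFC than in the other 2 libraries. These genes entered the selection, so the levels only describe it. Of 12 markers of radial glia-like stem cells, the summed level was 248, 218 and 329 CPM. Nes, a defining marker of these cells, had 0, 3 and 2 counts, and 6, 8 and 15 members carried 3 or more of the 12 markers.

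Other cell types left RNA in the members too. Granule neuron markers summed to 2498, 2522 and 2089 CPM in members, against 4968, 5187 and 3820 CPM in the other barcodes. Microglia markers stood at 149, 178 and 552 CPM, with C1qb, a complement gene of microglia, at 5.06, 7.61 and 142 CPM. Oligodendrocyte markers summed to 238, 398 and 348 CPM. The part of this RNA in the results was not tested, except where nuclei were left out as given below. No member barcode occurred in a second library, although 25 to 32 barcodes of all kinds were shared by each pair of libraries.

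The library labelled KO-CFC stood apart from both wild-type libraries in all its barcodes. In members, Xist was at 756 CPM there, against 3.81 in WT-CFC and 0 in WT-naive, and Eif2s3y, a Y-linked gene, at 19.1 against 133 and 114 CPM. Igkc, an immunoglobulin gene of plasma cells, was at 849 CPM in members, 384 in Gfap-negative astrocyte nuclei and 453 in other barcodes of that library, and had 0 counts in members of both others. Ribosomal protein genes summed to 17983 CPM in its members against 9044 in WT-CFC and 8078 in WT-naive, and mt-Rnr2 was at 529 against 3197 and 2843 CPM. Csf2rb2 itself had 3, 4 and 3 counts in members of WT-naive, WT-CFC and KO-CFC, and 368 counts in the whole KO-CFC library (9.67 CPM) against 1208 in WT-CFC (17.6 CPM). Its RNA was thus counted in the library labelled as the knockout, and Csf2rb2 and Csf2rb are near-identical copies between which reads can be split. Knockout, sex-linked RNA, immune RNA and library cannot be told apart in any comparison with KO-CFC. The 3 libraries held 38045642 to 68519389 UMIs, and the members' sums held 395048, 788215 and 784289 UMIs for WT-naive, WT-CFC and KO-CFC, so WT-naive was the least precise.

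Gfap was detected in a larger share of astrocyte nuclei after CFC and in the largest share in KO-CFC. It was 18.6% of 695 astrocyte nuclei in WT-naive (exact Clopper-Pearson 95% interval 15.7 to 21.7), 27.7% of 877 in WT-CFC (24.8 to 30.8) and 51.7% of 470 in KO-CFC (47.1 to 56.3). These 3 intervals did not overlap, but with 1 library per group they cover counting error only and no condition could be tested. Depth differed little, with a median of 2081, 2489 and 2170 UMIs in members and 1947, 2154 and 1907 UMIs in Gfap-negative astrocyte nuclei, the 1427 nuclei that met every other limit. With each nucleus thinned to 1000 UMIs the shares were 10.4% (8.13 to 12.9), 14.7% (12.4 to 17.2) and 37.8% (33.2 to 42.5), after 38, 25 and 28 shallower nuclei were left out. The intervals of both wild-type libraries overlapped at this depth. Granule neuron nuclei, which should lack Gfap, gave 0% of 344, 0.287% of 348 and 3.49% of 373 at the same depth, the first of which allows up to 1.07%. Unthinned, the same background was 0.557%, 1.60% and 9.14%, at median depths of 4573, 4869 and 3750 UMIs. Background was thus highest in KO-CFC and was below the astrocyte share in each library. A smaller count of Gfap-negative astrocyte nuclei and a larger count of Gfap-positive ones raise the share alike: members were 1.20%, 1.86% and 2.90% of kept barcodes, and all astrocyte nuclei 6.46%, 6.71% and 5.61%.

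**Figure D1:**
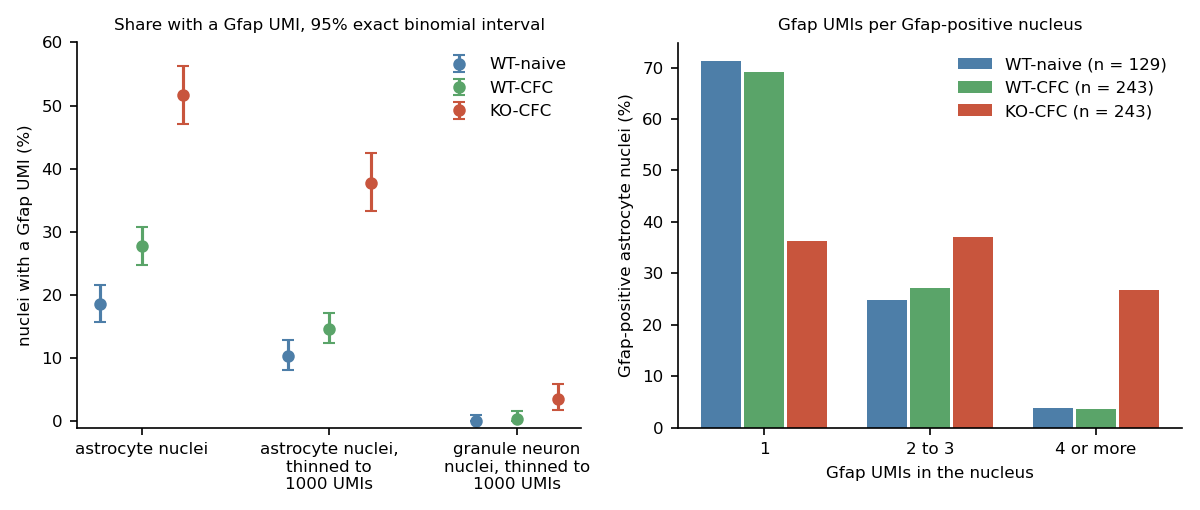
Left, the percent of nuclei with a Gfap UMI in astrocyte nuclei as sequenced, in astrocyte nuclei thinned to 1000 UMIs and in granule neuron nuclei thinned likewise, with exact binomial 95% intervals, by library. Right, the percent of Gfap-positive nuclei with 1, 2 to 3 or 4 or more Gfap UMIs. The 51.7% share and the 26.7% of members with 4 or more UMIs in KO-CFC stand above both wild-type libraries.

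Members of KO-CFC also held more Gfap per nucleus. In WT-naive, WT-CFC and KO-CFC a single Gfap UMI was found in 71.3%, 69.1% and 36.2% of members, and 4 or more in 3.88%, 3.70% and 26.7%. The most in any nucleus was 5, 5 and 31 UMIs. Gfap summed to 458 CPM in WT-naive members, 455 in WT-CFC members and 951 in KO-CFC members. WT-naive and WT-CFC did not differ in this level beyond counting error, with intervals of 394 to 530 and 410 to 505 CPM. In other barcodes Gfap stood at 4.16, 4.70 and 46.9 CPM in WT-naive, WT-CFC and KO-CFC, and in granule neuron nuclei at 0.965, 2.63 and 22.9 CPM. It was thus higher in KO-CFC outside the members too, and the part of this RNA in members was not tested. The Gfap level of members is bounded from below by the selection, so it is a description. Just outside it, 31, 17 and 101 barcodes had a Gfap UMI and met every limit except that they had 3 of the astrocyte genes, with a mean of 1.13, 1.41 and 2.23 Gfap UMIs, against 1.32, 1.45 and 2.56 in members with exactly 4 of them. A further 21, 17 and 46 had 2 UMIs of the 4 genes of other cell types.

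Within KO-CFC, members with more Gfap UMIs had more vimentin RNA. Vim was at 74 CPM in its 88 members with 1 Gfap UMI, at 198 CPM in the 90 with 2 to 3 and at 347 CPM in the 65 with 4 or more, rounded to whole CPM. B2m, the light chain of MHC class I, was at 105, 209 and 390 CPM in the same order, and Fxyd1, a regulator of the sodium pump, at 78, 239 and 332 CPM. Dio2, which converts thyroxine to its active form, was at 43, 37 and 31 CPM. It had 29 counts over all members of KO-CFC, too few to read an order from. Classes with more Gfap were also deeper, at a median of 1880, 2082 and 2457 UMIs, and the part of depth was not tested. In the wild-type libraries only 5 and 9 members had 4 or more Gfap UMIs, and Vim had 4 and 11 counts over all members, so the same order was not measurable there.

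Gfap-positive and Gfap-negative astrocyte nuclei were compared with the 3 libraries as replicates, each giving 1 pair, by edgeR's quasi-likelihood test with Benjamini-Hochberg adjustment over all genes. Of 10587 genes outside the selection rule, 14 (0.132%) were higher and 8 (0.0756%) lower in Gfap-positive nuclei. The higher genes included filament, calcium-binding and complement genes of fibrous and reactive astrocytes. Vim was at 10.1, 14.0 and 207 CPM in Gfap-positive nuclei of WT-naive, WT-CFC and KO-CFC and at 9.66, 8.29 and 57.5 CPM in Gfap-negative ones, a log2 difference of 1.43 ± 0.26 (SE; adjusted p = 0.0264). The difference was small in WT-naive (0.19) and large in KO-CFC (1.83). C4b, complement C4, was at 45.6, 119 and 277 CPM against 28.4, 64.7 and 77.1 CPM, a log2 difference of 1.24 ± 0.19 (adjusted p = 0.0134). Id3, an inhibitor of basic helix-loop-helix transcription factors, was at 114, 46.9 and 158 CPM against 43.5, 38.7 and 51.4 CPM (1.13 ± 0.21, adjusted p = 0.0264). The metallothionein Mt2, which binds zinc and copper, was at 101.2, 127 and 306 CPM against 55.6, 90.7 and 100.4 CPM (1.0 ± 0.18, adjusted p = 0.0264).

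The remaining higher genes that the naming rule picked were Ecrg4 (2.27 ± 0.41), Sulf1 (2.02 ± 0.38), Hhatl (1.96 ± 0.38), Gsn (1.60 ± 0.32), Fxyd1 (1.39 ± 0.27), S100a6 (1.33 ± 0.27), Mrps6 (1.33 ± 0.28) and Dbi (0.92 ± 0.17), as log2 differences with SE. Ecrg4 encodes a secreted peptide precursor, Sulf1 an enzyme that trims sulfate from heparan sulfate, Gsn the actin-severing gelsolin, S100a6 a calcium-binding protein and Dbi the acyl-CoA-binding protein. The naming rule required the same direction in all 3 libraries, so that direction is no support for them. Counts were low for some: Sulf1 had 3, 10 and 61 counts in Gfap-positive nuclei and Ecrg4 had 5, 10 and 87. Mrps6, a mitochondrial ribosomal protein gene, differed by 1.23, 1.45 and 1.35 in WT-naive, WT-CFC and KO-CFC. Hhatl differed by 2.84, 1.27 and 2.30. The 7 named lower genes were Lhfpl3 (-1.49 ± 0.29), Il1rapl2 (-1.20 ± 0.22), Pcdh15 (-1.10 ± 0.23), Unc5d (-1.05 ± 0.21), Etl4 (-0.79 ± 0.15), Nrg3os (-0.78 ± 0.15) and Rian (-0.74 ± 0.15). Lhfpl3 is among the markers of oligodendrocyte precursors, and Unc5d encodes a netrin receptor of neurons.

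**Figure D2:**
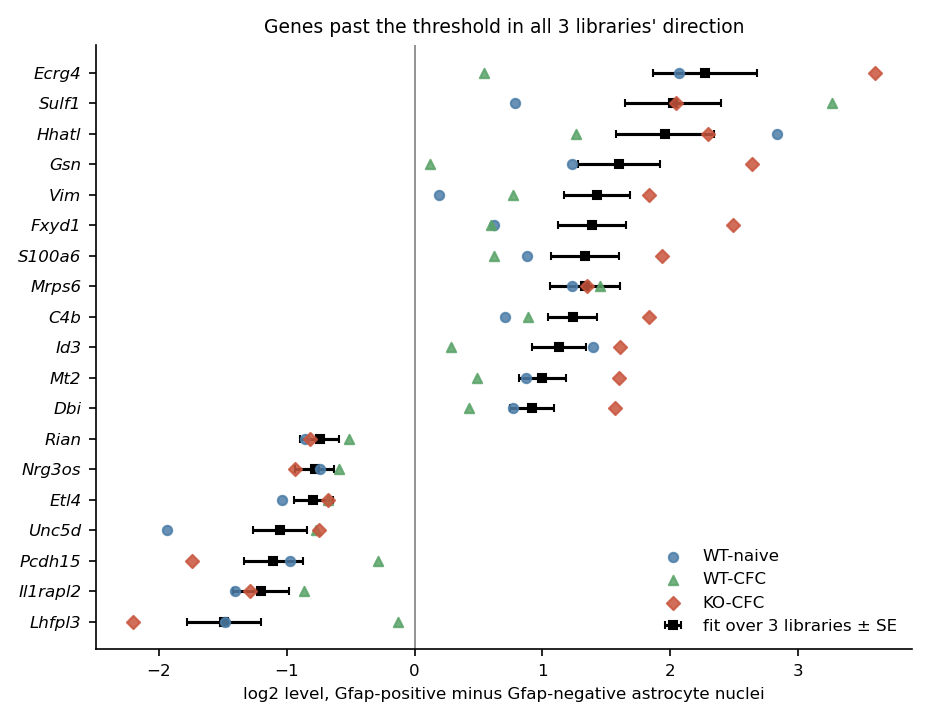
Log2 level in Gfap-positive minus Gfap-negative astrocyte nuclei for the 19 named genes. Black squares and bars give the fit over 3 libraries with its SE, and coloured points the difference within each library. Differences for Vim, Gsn, Fxyd1 and Ecrg4 are largest in KO-CFC.

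By list, 6 of the 19 tested genes of fibrous and limiting-membrane astrocytes were higher and 0 lower (Vim, Id3, C4b, S100a6, Fxyd1 and Dbi), and 18 had a log2 difference above 0. Their median was 0.60, beside 0.01 over all 10587 genes, of which 0.132% were higher and 0.0756% lower. The lists were chosen with earlier results of these data known, so their counts describe and are no independent support. Of 24 tested protoplasmic genes, 0 passed in either direction and the median was 0.08. Glul, glutamine synthetase, differed by 0.24 and Gpc5, a heparan sulfate proteoglycan, by 0.10. Of 15 tested stem cell genes, 0 passed, with a median of 0.09. The 3 metallothioneins had a median of 0.85, and Mt2 passed (Mt1 0.85, adjusted p = 0.0523). Of 24 cholesterol and lipid synthesis genes, 0 passed (median 0.10), and of 6 interferon and antigen presentation genes 0 passed (median 0.63, with B2m at 1.08 and adjusted p = 0.154). A p that misses the threshold does not show that the nuclei were alike. Whether the differences themselves differed with condition could not be tested with 1 library per condition. DESeq2 called 0 genes (145 at an unadjusted p under 0.05), as did edgeR without the pairing of nuclei by library (274). Without KO-CFC, 15 genes were higher and 23 lower, and of the named higher genes Hhatl, C4b, Id3 and Dbi passed, while Vim, at a log2 difference of 0.50, did not. Without WT-CFC the counts were 53 and 26, and without WT-naive 40 and 9. Without the nuclei of highest doublet score 3 were higher and 3 lower, with Hhatl and C4b among the former. Without nuclei holding an immune UMI, which were 221 of the 243 members of KO-CFC, 0 were higher and 11 lower, with 365 genes at an unadjusted p under 0.05.

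The effect of conditioning was addressed by setting Gfap-positive nuclei of WT-CFC against those of untrained WT-naive mice. With 1 library each this gives sizes and counting intervals, not a test, and conditioning and library cannot be told apart. Some RNA differed between these libraries in all barcodes. Actg1 was at 91.3 CPM in WT-CFC members and 27.8 CPM in WT-naive members, and at 61.7 and 17.8 CPM in their other barcodes. Ttr was at 0.117 CPM over the whole WT-CFC library and 37.4 CPM over WT-naive. Of 2056 genes with at least 100 counts over both sums, 158 (7.68%) were more than 1.5-fold higher in WT-CFC and 106 (5.16%) lower. Of those higher, 67 were also past 1.5-fold in Gfap-negative astrocyte nuclei and 22 in the other barcodes, and of those lower 50 and 3. The share of all 2056 genes past 1.5-fold in those classes was not counted, so these overlaps are a description only. The median log2 ratio of all genes tested was 0.07.

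Arhgap31, a GTPase-activating protein, stood at 164 CPM in WT-CFC and 60.8 CPM in WT-naive, a log2 ratio of 1.41 (95% counting interval 0.79 to 2.12). Its ratio was 0.99 in Gfap-negative nuclei and 0.56 in other barcodes. C4b stood at 119 and 45.6 CPM (1.36, 0.65 to 2.20), and was also higher in Gfap-negative nuclei (1.18) and in other barcodes (1.26). The matrix protease Adamts20 was at 108 and 40.5 CPM (1.38, 0.63 to 2.28), beside 1.77 in Gfap-negative nuclei and 0.31 in other barcodes. Ddah1, which breaks down an inhibitor of nitric oxide synthase, was at 194 and 78.5 CPM (1.29, 0.74 to 1.91), beside 0.95 and 0.18 in the same order. Pde10a, which degrades cyclic nucleotides, was at 590 and 246 CPM (1.26, 0.95 to 1.60). Its log2 ratio was 1.08 in Gfap-negative nuclei and 0.02 in the other barcodes. Lhfpl6 (1.23), Lamp2, a lysosomal membrane protein (1.16), Pcyt2, of phospholipid synthesis (1.15), Azin1 (1.15) and Hnrnpk (1.10) were also among the 12 highest, as was Ctnna3 (1.21). For some of these genes an alternative took the ratio below 1.5-fold. With at least 2 Gfap UMIs per nucleus Arhgap31 stood at 0.20 and C4b at 0.35, with nuclei thinned to 1000 UMIs Adamts20 stood at 0.34 and Ctnna3 at 0.49, and with at least 6 astrocyte genes Azin1 stood at 0.54.

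The lowest gene in WT-CFC was Neat1, a nuclear long non-coding RNA, at 164 CPM in WT-CFC and 585 CPM in WT-naive, a log2 ratio of -1.83 (-2.16 to -1.52). It was also lower in Gfap-negative nuclei (-1.62) but not in the other barcodes (0.28). Neat1 is on the list of genes kept as signs of RNA quality and free RNA, and the part of RNA quality was not tested. Slc38a2, a neutral amino acid transporter, was at 77.4 and 175 CPM (-1.17, -1.70 to -0.66). It was also lower in Gfap-negative nuclei (-1.42) and in the other barcodes (-0.56). The other genes of the 12 lowest included Ralyl (-1.24), Khdrbs3 (-1.20), Marchf1 (-1.06), Mgat4c (-1.06) and Epha3 (-1.22). Without the sub-clusters led by genes of other cell types, which are described at the end, Ralyl went to 0.05, Khdrbs3 to 0.22, Marchf1 to 0.08, Mgat4c to -0.10 and Epha3 to -0.48, while Neat1 stood at -2.02 and C4b at 0.95.

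By list, the summed level of the 25 cholesterol and lipid synthesis genes was 1944 CPM in WT-CFC members and 1357 CPM in WT-naive members, a log2 ratio of 0.52 (0.38 to 0.66), beside 0.51 in Gfap-negative nuclei and 0.25 in the other barcodes. Of its 6 genes with enough counts, 2 were higher past 1.5-fold, where 7.68% of all genes were, among them Msmo1, a demethylating oxidase of sterols, at 242 and 124 CPM (0.96). The A1-type reactive list, which holds C4b, summed to 216 and 96.2 CPM (1.15, 0.65 to 1.71), beside 1.17 in Gfap-negative nuclei and 0.30 in the other barcodes. Glucocorticoid response genes had a ratio of 0.38 (0.24 to 0.52) against 0.48 in Gfap-negative nuclei, with Zbtb16 at 208 and 106 CPM (0.96). Immediate early genes summed to 198 and 98.7 CPM (0.99, 0.49 to 1.55), beside 0.48 in Gfap-negative nuclei and 0.31 in the other barcodes. Interferon and antigen presentation genes stood at 181 and 170 CPM (0.09, -0.33 to 0.54), within counting error. In Gfap-negative nuclei their ratio was 0.81 (0.57 to 1.05), beyond counting error, and in the other barcodes 0.29. Pan-reactive genes stood at 73.6 and 45.6 CPM (0.66, -0.09 to 1.54), within counting error, beside 0.15 in Gfap-negative nuclei. Fibrous genes were at 0.35 (0.27 to 0.44), beside 0.69 in Gfap-negative nuclei. Protoplasmic genes were at 0.13 (0.09 to 0.17), beside 0.23 in Gfap-negative nuclei, with Dio2 at 377 and 177 CPM (1.08) and Rorb at 0.85 as the highest.

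**Figure D3:**
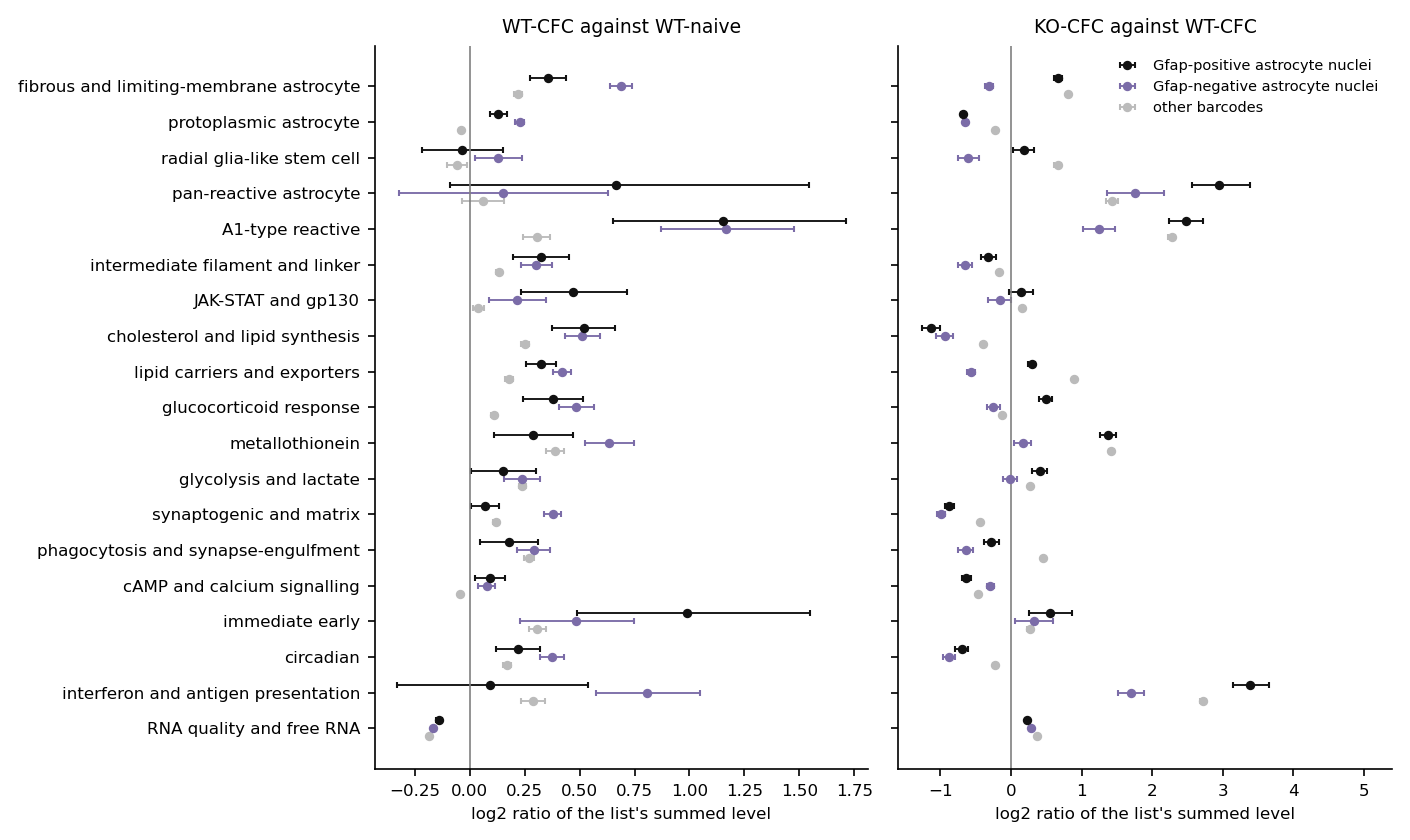
Log2 ratio of the summed level of 19 gene lists with 95% counting intervals, WT-CFC against WT-naive on the left and KO-CFC against WT-CFC on the right. Black points are Gfap-positive astrocyte nuclei, purple points Gfap-negative ones and grey points all other barcodes. In KO-CFC against WT-CFC the fibrous and metallothionein lists stand at 0.67 and 1.38 in Gfap-positive nuclei at -0.31 and 0.17 in Gfap-negative ones and at 0.81 and 1.42 in other barcodes.

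KO-CFC was compared with WT-CFC to ask what differed in Gfap-positive nuclei of conditioned mice when the library labelled as the knockout was set against wild type. Members of KO-CFC had more RNA of the interferon and antigen presentation list and of the A1-type and pan-reactive lists, and less of the protoplasmic, the cholesterol and lipid synthesis and the cAMP and calcium lists. Other barcodes of the library differed from WT-CFC in the same direction for each of these 6 lists. Of 2970 genes, 379 (12.8%) were more than 1.5-fold higher in KO-CFC and 450 (15.2%) lower. Under TMM scaling (edgeR's trimmed mean of M-values) 288 were higher and 583 lower. Of the 379 higher genes, 247 were past 1.5-fold in the same direction in barcodes that were not astrocyte nuclei, and of the 450 lower genes 61 were. Of the lower genes 276 were also past 1.5-fold in Gfap-negative astrocyte nuclei. These overlaps too are a description only, as the share of all 2970 genes past 1.5-fold in those classes was not counted.

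The interferon-induced genes were low in both wild-type libraries. Bst2, tetherin, which holds budding virus at the cell surface, had 1 count in WT-naive members, 3 in WT-CFC members and 115 in KO-CFC members, at 2.53, 3.81 and 147 CPM. Its log2 ratio in KO-CFC against WT-CFC was 5.05 (3.68 to 7.57), beside 2.05 in Gfap-negative nuclei and 3.64 in other barcodes. H2-D1, a class I heavy chain, was at 12.7, 12.7 and 291 CPM, a log2 ratio of 4.45 (3.61 to 5.6), and H2-T23, a nonclassical class I gene, had 1, 2 and 123 counts (5.63, 4.07 to 9.01). B2m was at 22.8, 17.8 and 235 CPM (3.68, 2.94 to 4.62). Class I genes are similar in sequence and their reads can be split between them. Ifitm3, an antiviral membrane protein, was at 7.59, 7.61 and 205 CPM (4.64, 3.6 to 6.22). The interferon-induced GTPase Iigp1 had 0, 1 and 117 counts (6.30, 4.37 to 12.2), and its near-identical copy Iigp1c had 0, 0 and 145, which is at least 48.6-fold higher in KO-CFC than in WT-CFC with WT-CFC set to 3 counts. Levels of these genes in members exceeded those of granule neuron nuclei of the same library: Bst2 was at 30.8 CPM, B2m at 56.5 CPM, Ifitm3 at 14.0 CPM and Iigp1 at 9.51 CPM in granule neuron nuclei. In Gfap-negative astrocyte nuclei of KO-CFC, Bst2 was at 25.7 CPM, B2m at 71.0 CPM, Ifitm3 at 46.5 CPM and Iigp1 at 25.7 CPM. Igkc (421 CPM), Jchain (122 CPM) and C1qb (91.8 CPM) were also present in granule neuron nuclei of KO-CFC, and were at 849, 226 and 142 CPM in its members. RNA of other cells can thus also stand higher in members than in granule neuron nuclei, and its part was not tested.

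As a list, interferon and antigen presentation genes summed to 1905 CPM in KO-CFC members and 181 CPM in WT-CFC members, a log2 ratio of 3.39 (3.14 to 3.65), beside 1.70 in Gfap-negative nuclei and 2.72 in other barcodes. All 5 of its genes with enough counts (Ifi27, H2-K1, B2m, H2-D1 and Bst2) were past 1.5-fold, where 12.8% of all genes were. The median of the 5 was 3.68, beside -0.10 over all genes tested. In the order listed they had 26, 34, 14, 10 and 3 counts in WT-CFC members. In KO-CFC members they had 100, 310, 184, 228 and 115. Genes this low in WT-CFC reached the minimum count, set over both sums, only through KO-CFC. The filter thus favoured higher genes in this list, so the 5 of 5 and their median are a description only. The promoters of 3 members that stood higher are printed to show the interferon-stimulated response element, to which interferon-activated transcription factors bind. They were chosen because they hold it: GAAANNGAAA, searched on both strands, with matches in capitals. Each runs over the 250 bases before the RefSeq start, in build GRCm38.p6, from B2m at chr2:122147437-122147686 (plus strand), Bst2 at chr8:71537473-71537722 (minus strand) and H2-T23 at chr17:36032702-36032951 (minus strand).
B2m: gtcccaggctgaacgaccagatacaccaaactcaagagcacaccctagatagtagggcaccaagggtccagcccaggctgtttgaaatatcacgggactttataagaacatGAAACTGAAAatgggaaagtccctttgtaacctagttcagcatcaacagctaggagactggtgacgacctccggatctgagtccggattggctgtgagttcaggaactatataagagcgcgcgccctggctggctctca
Bst2: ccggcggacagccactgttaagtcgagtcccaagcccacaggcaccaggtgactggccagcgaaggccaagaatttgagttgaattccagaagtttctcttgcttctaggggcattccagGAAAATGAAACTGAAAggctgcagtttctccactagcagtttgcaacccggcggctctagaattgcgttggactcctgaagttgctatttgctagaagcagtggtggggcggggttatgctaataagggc
H2-T23: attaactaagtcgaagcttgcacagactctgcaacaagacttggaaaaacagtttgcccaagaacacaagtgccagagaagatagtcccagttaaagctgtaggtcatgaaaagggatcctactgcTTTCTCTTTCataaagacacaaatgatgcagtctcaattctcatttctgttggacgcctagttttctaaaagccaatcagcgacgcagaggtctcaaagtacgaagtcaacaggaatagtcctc
Bst2 holds 2 overlapping matches that begin 130 and 124 bases before the start, B2m 1 at 139 bases and H2-T23 1 on the opposite strand at 124 bases. The motif was found in 2.98% of the 32851 windows of this length in the table, and in 6 of the 16 genes of the list's 19 that the table held (B2m, Bst2, Ifit1, Ifit3, Isg15 and Stat2). The first share counts windows, which belong to 27025 genes, and the second counts genes with a match in any of their windows. The 2 shares are thus not on the same scale. H2-T23 belongs to the A1-type list. A match describes letters only, and no binding was measured.

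Reactive and fibrous genes also stood higher. Vim was at 10.1, 14.0 and 207 CPM in WT-naive, WT-CFC and KO-CFC members, a log2 ratio of 3.83 (3.01 to 4.92) in KO-CFC against WT-CFC, with 3.1%, 3.7% and 31.7% of members holding a Vim UMI. The ratio was 2.76 in Gfap-negative nuclei and 3.76 in other barcodes. Pan-reactive genes summed to 574 CPM against 73.6 CPM (2.95, 2.57 to 3.38) and A1-type genes to 1202 against 216 CPM (2.48, 2.24 to 2.72). These sums were also higher in Gfap-negative nuclei (1.76 and 1.25) and in other barcodes (1.43 and 2.28). Serpina3n, a secreted protease inhibitor of reactive astrocytes, was at 12.7, 8.88 and 75.2 CPM in WT-naive, WT-CFC and KO-CFC members. C3, complement C3, had 0, 0 and 19 counts, and Lcn2, lipocalin 2, had 0, 0 and 13. The A2-type list, with no gene of enough counts, summed to 142 against 22.8 CPM (2.60, 1.91 to 3.44).

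Fibrous and limiting-membrane genes summed to 8738 CPM in KO-CFC members and 5500 CPM in WT-CFC members, a log2 ratio of 0.67 (0.61 to 0.72). The ratio of the same sum was -0.31 in Gfap-negative nuclei and 0.81 (0.79 to 0.83) in other barcodes, where it was thus larger than in members. Of 12 genes with enough counts 8 were higher past 1.5-fold and 1 lower, where 12.8% of all genes were higher and 15.2% lower: Vim, S100a6 (2.20), Fxyd1 (1.95), Id3 (1.74), C4b (1.21), Dbi (1.15), Aldoc, a glycolytic enzyme of astrocytes (0.77), and Cst3, cystatin C (0.70), against Mfge8, a bridge for phagocytosis (-1.45). All 3 metallothioneins were higher: Mt1 was at 461, 563 and 1672 CPM (1.57), Mt2 at 101.2, 127 and 306 CPM (1.27) and Mt3 at 354, 430 and 938 CPM (1.12). In Gfap-negative nuclei their summed ratio was 0.17 and in other barcodes 1.42. Of the 5 stem cell genes with enough counts, Hopx (1.06) and Sox9 (1.05) were higher and Rfx4 (-0.75) lower. JAK-STAT genes did not differ in sum beyond counting error (0.14, -0.03 to 0.31), with Stat3 at 65.8, 88.8 and 72.7 CPM in the 3 libraries.

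The lowest gene was Dio2, at 377 CPM in WT-CFC members and 37.0 CPM in KO-CFC members, a log2 ratio of -3.33 (-3.95 to -2.80). In Gfap-negative nuclei its ratio was -3.09. Slco1c1, the transporter that takes up thyroxine, was at 313 and 75.2 CPM (-2.05, -2.49 to -1.64). Hsd11b1, which regenerates active glucocorticoid, was at 170 and 45.9 CPM (-1.87, -2.46 to -1.35). In other barcodes Dio2 stood at -1.91, Slco1c1 at -0.11 and Hsd11b1 at 0.12. The phosphodiesterases Pde10a (-2.00) and Pde7b (-1.77), the protease Adamts20 (-1.80), Fam163a (-2.31), Plekhg1 (-1.71) and Msmo1 (-1.63) complete the lower genes that the rule named, beside Cmss1 (-2.33), Mir6236 (-2.33) and Rn7sk (-1.65), whose ratios in other barcodes were -2.14, -2.32 and -1.97.

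Protoplasmic genes summed to 14458 CPM in KO-CFC and 23187 CPM in WT-CFC members (-0.68, -0.72 to -0.65) and 12 of the 21 with enough counts were lower past 1.5-fold, 0 higher, where 15.2% of all genes were lower. Examples are Gpc5 (-1.17), Megf10, an engulfment receptor (-1.34), and Mertk, a receptor for dying cells and synapses (-1.09). The sum was lower by -0.65 in Gfap-negative nuclei and by -0.23 in other barcodes. Cholesterol and lipid synthesis genes summed to 886 against 1944 CPM (-1.13, -1.26 to -1.0), with 5 of 6 lower, among them Msmo1, Cyp51 (-1.45), Srebf2, the transcription factor of the pathway (-0.98), and Scd2, a desaturase (-0.96). Of 15 cAMP and calcium genes 8 were lower and 0 higher. Of 10 synaptogenic and matrix genes 6 were lower, such as Bcan, brevican (-1.09), and Sparc was higher (0.74). In the glucocorticoid list Zbtb16 (-1.44), Nr3c1, the glucocorticoid receptor (-1.12), and Klf9 (-0.59) were lower, and Mt1 and Mt2 higher. The sum of this list was higher in KO-CFC (0.49, 0.40 to 0.59), while the median of its 6 genes with enough counts was -0.56. Lifr, the receptor of leukemia inhibitory factor, was lower (-1.0).

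**Figure D4:**
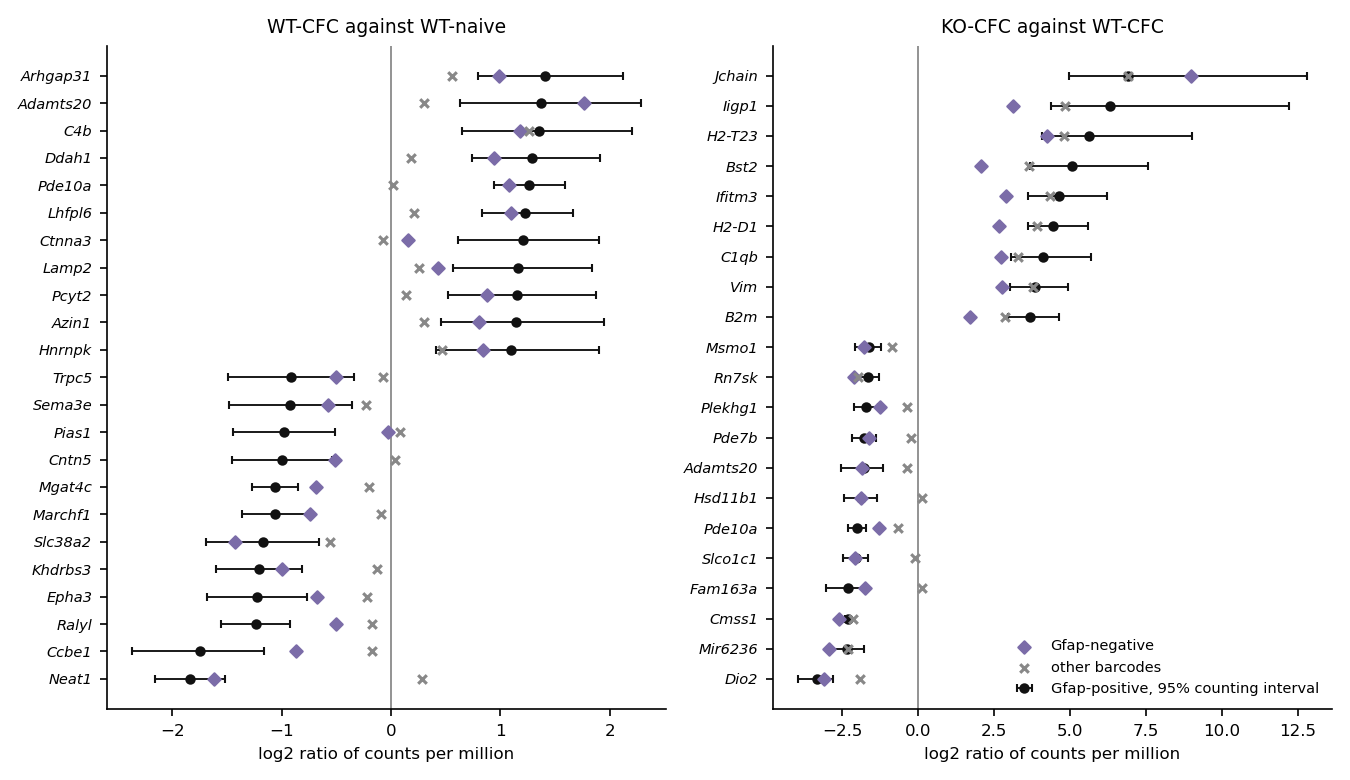
Log2 ratio of CPM in Gfap-positive astrocyte nuclei (black, with 95% counting intervals), Gfap-negative astrocyte nuclei (purple diamonds) and other barcodes (grey crosses) for genes named in each comparison. Genes with a count of 0 in either library, among them Igkc, Cd74 and Iigp1c, are not drawn. Neat1 is at -1.83 on the left and Dio2 at -3.33 on the right.

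KO-CFC against WT-naive shares the KO-CFC library with the comparison above, so it is no second measurement of it. Of 2017 genes, 323 (16.0%) were higher past 1.5-fold and 246 (12.2%) lower. Vim stood at 4.18 (2.97 to 6.24), H2-K1 at 3.90 (3.07 to 5.04) and C1qb at 4.49 here. Dio2, higher in WT-CFC than in WT-naive, was at 177, 377 and 37.0 CPM in WT-naive, WT-CFC and KO-CFC. Zbtb16 was at 106, 208 and 76.5 CPM and Msmo1 at 124, 242 and 77.8 CPM in the same order. WT-CFC was the highest of the 3 libraries for each. For Zbtb16 and Msmo1 the separate intervals of WT-naive (76.6 to 144 and 91.8 to 164) and KO-CFC (58.4 to 98.5 and 59.5 to 99.9) overlapped, which does not show that the levels were alike. The summed cholesterol and lipid synthesis genes, which include Msmo1, were lower in KO-CFC than in WT-naive members (-0.61, -0.78 to -0.45). Their ratio was -0.43 in Gfap-negative nuclei and -0.15 in other barcodes. Neat1 was lower in both libraries of conditioned mice, at 164 and 213 CPM, than in WT-naive at 585 CPM. Grin2c, an NMDA receptor subunit of astrocytes, was at -1.38 (-1.94 to -0.84) and Kank1 at -1.58.

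The IL-3 receptor genes were hardly counted in members. Il3ra had 0, 1 and 3 counts in WT-naive, WT-CFC and KO-CFC, Csf2rb 1, 0 and 2, and Csf2ra, the alpha subunit of the GM-CSF receptor, 3, 8 and 22. Il3 had 0 counts in all 3 libraries. No difference in Csf2rb2 was detectable at this depth, with intervals of 1.57 to 22.2, 1.38 to 12.99 and 0.79 to 11.2 CPM around 7.59, 5.07 and 3.83 CPM. A floor of 3 counts corresponds to 7.59 CPM in WT-naive members and 3.81 CPM in WT-CFC members.

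Clustering of the 615 members alone, without Gfap among the variable genes, gave 7 sub-clusters, which describe the members and are no test. Sub-cluster 1 held 283 nuclei, led by Dio2, Klhdc7a, Tox and Grin2c, and took 71.3%, 70.8% and 7.82% of the members of WT-naive, WT-CFC and KO-CFC. Sub-cluster 2 held 160 nuclei, led by Ccl2, Il12b, Ighg2b, Ighg1, Iigp1c, Gbp2 and Cxcl10, which include chemokine, immunoglobulin and interferon-induced genes. It held 0.775%, 0.823% and 64.6% of the 3 libraries' members, so a library and a cell type cannot be told apart in it. Its interferon list was at 2750 CPM and its Gfap at 1620 CPM, against 227 and 669 CPM in sub-cluster 1. Sub-cluster 5, of 52 nuclei, was led by Pou2f3, Calcrl, Adgrv1 and Tnc and took 10.9%, 12.8% and 2.88% of the libraries. Its summed stem cell markers were at 631 CPM, against 216 in sub-cluster 1 and 484 in sub-cluster 2. Endothelial cell markers were at 426.11 CPM in sub-cluster 5, against 11.02 in sub-cluster 1 and 14.67 in sub-cluster 2. Pericyte or smooth muscle markers were at 213.06 CPM, against 73.99 and 88.03 in the same order. But 0 of all these markers were among the 10 leading genes of sub-cluster 5, so it stays unnamed. It was kept in the alternative without sub-clusters led by other cell types, and the part of its endothelial and pericyte RNA was not tested.

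The other 4 sub-clusters were led by genes of other cell types. Sub-cluster 3 (10 nuclei) was led by myelin genes such as Mag, Mobp and Mbp, with oligodendrocyte markers at 5513 CPM, and sub-cluster 7 (11 nuclei) by Csf1r, Inpp5d and C1qa, with microglia markers at 3344 CPM. Sub-clusters 4 (27 nuclei) and 6 (72 nuclei) were led by neuronal genes such as Chrm3, Cntnap2 and Cntnap5a, with granule neuron markers at 4050 and 4153 CPM, and at a median of 10348 and 5593 UMIs against 2128 in sub-cluster 1. Together these held 22 of 129, 38 of 243 and 60 of 243 members. Without them, Vim in KO-CFC against WT-CFC stood at 4.08, H2-D1 at 4.33, Bst2 at 5.00, Dio2 at -3.22 and Adamts20 at -1.82, and Pde10a moved from -2.00 to -3.43.

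**Figure D5:**
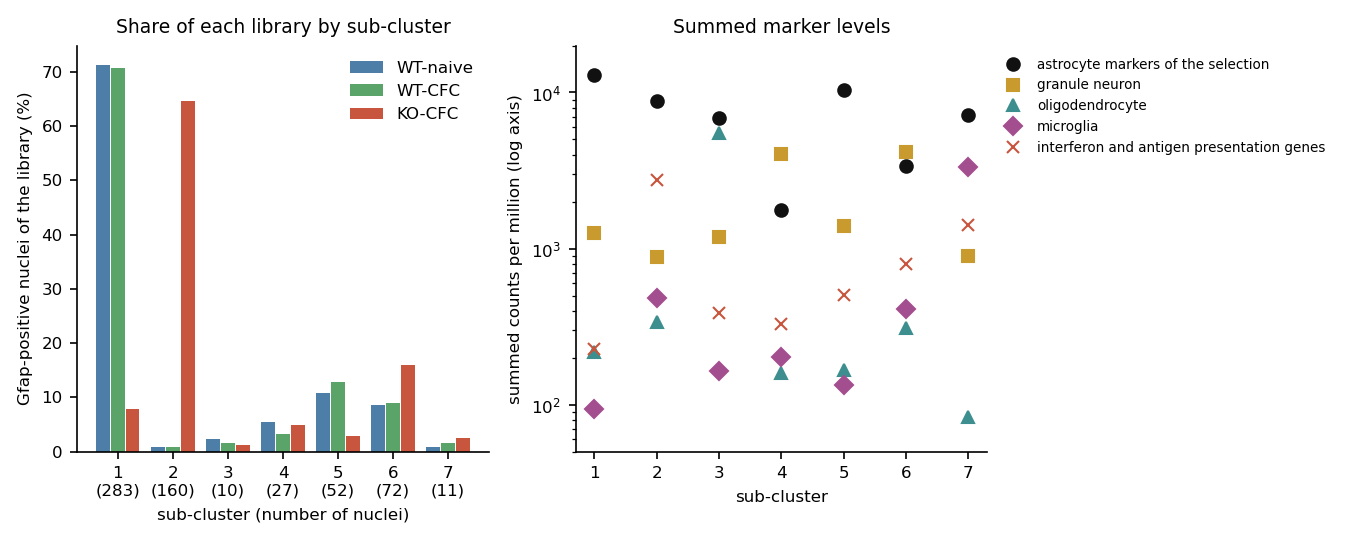
Left, the percent of each library's Gfap-positive nuclei in each of 7 sub-clusters. Right, summed CPM of 5 gene lists in each sub-cluster on a log axis. Sub-clusters 3 and 7 stand out by oligodendrocyte (5513) and microglia (3344) markers, and 4 and 6 by granule neuron markers.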

How the data were processed

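Single-nucleus RNA of the dentate gyrus was analysed from 3 libraries, 1 for each of WT-naive, WT-CFC and KO-CFC, and 2 further libraries of the series, labelled total RNA, were not used here. The deposited values are UMI counts per gene and barcode, not normalized. The submitters' processing notes name Cell Ranger 8.0.1, Seurat 5.4.0 and GRCm39. Per the labels' protocols, nuclei came from frozen tissue and a 3' kit was used.

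The members and gene lists were chosen with earlier results of these data known. Counts were summed over nuclei of each class and library and scaled to CPM (a total of 1000000). Conditions were compared as log2 ratios with 0.5 counts added and exact conditional 95% intervals, for genes with at least 100 counts. A gene was called past 1.5-fold, with no test, since each group is 1 library. Gfap-positive and Gfap-negative nuclei were compared with edgeR 4.0.16 (quasi-likelihood, library as block, Benjamini-Hochberg over all genes), with DESeq2 1.42.0 as an alternative. On data simulated for the Gfap-positive against Gfap-negative comparison (10599 genes), 65.4% of 2-fold and 91.2% of 3-fold changes were recovered. Those data had the same preset noise level for every gene, not the level estimated from the real sums. The recovery holds for that preset level only. Intervals cover counting error only, and the mice of a group were pooled. Named genes were the 5 markers, extremes of each list, and up to 12 genes with the largest difference in each direction. For conditions these had at least 50% of the CPM of other barcodes, and for the paired comparison the same direction in all 3 libraries. Unnamed gene models and mitochondrial, ribosomal protein, haemoglobin and sex-linked genes were left out. Doublets were scored with scanpy 1.11.5. The automatic threshold marked 1, 0 and 1172 barcodes in the 3 libraries, so it had not worked in the wild-type libraries. No doublet was removed, and the 8% of highest score were left out as an alternative. Alternatives without nuclei holding an immune UMI, and without sub-clusters led by other cell types, were chosen after seeing the data. A few genes that the rule named are not reported here.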

Additional observations from a re-analysis of the deposited data

Results flagged for a closer look

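Some genes differed in opposite directions in Gfap-positive and Gfap-negative astrocyte nuclei, with both counting intervals excluding 0. The difference between the classes was not tested, since each condition is 1 library. The values are given as the log2 ratio in Gfap-positive and then in Gfap-negative nuclei, for KO-CFC against WT-CFC. Apoe, the main lipid carrier of the brain, had log2 ratios of 0.37 and -0.52, Clu, the carrier clusterin, 0.17 and -0.89, and the cholesterol exporter Abca1 0.66 and -0.76. Cst3 had 0.70 and -0.30, the matrix protein gene Sparc 0.74 and -0.50, and Mlc1, a membrane protein of astrocyte endfeet, 0.56 and -0.76. In other barcodes of the same comparison Apoe stood at 2.00, Cst3 at 1.36, Sparc at 1.30, Mlc1 at 0.91, Clu at 0.72 and Abca1 at 0.32. Each but Abca1 was thus further from 0 there than in members, and the part of this RNA was not tested. Of the 6 genes only Cst3, Abca1 and Sparc were past 1.5-fold in members. Over both classes together the ratios of Apoe, Clu and Abca1 were 0.05, -0.17 and 0.24. Those of Cst3, Sparc and Mlc1 were 0.33, 0.16 and 0.04. The Gfap cut that splits the classes left 27.7% of astrocyte nuclei Gfap-positive in WT-CFC and 51.7% in KO-CFC. The part of that shift in the opposite directions was not tested. Tnr, tenascin R, had -0.38 and 0.29, with -0.75 in other barcodes, and Mgat4c -0.54 and 0.24, with -1.0 there. Over both classes together Tnr stood at 0.01 and Mgat4c at -0.09. KO-CFC against WT-naive shares the KO-CFC library. There Abca1 had 0.56 and -0.80, Apoe 0.61 and -0.17, and Clu 0.80 and -0.16, with 0.62, 1.89 and 1.25 in other barcodes. Lrp1b had -0.32 and 0.20, Ralyl -0.90 and 0.26, and Grm5 -0.19 and 0.16, with -0.23, -0.53 and -0.43 in other barcodes. Over both classes together Abca1, Apoe and Clu stood at 0.22, 0.40 and 0.57. Lrp1b, Ralyl and Grm5 stood at -0.0015, -0.14 and 0.0022 over both.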

How the results depend on the processing

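The share of astrocyte nuclei with Gfap kept its order over the 3 libraries under the settings tried. Thinned to 1000 UMIs it was 10.4%, 14.7% and 37.8% in WT-naive, WT-CFC and KO-CFC, with at least 6 astrocyte genes 26.0%, 31.0% and 60.4%, and without nuclei with an immune UMI 44.0% in KO-CFC. Counts of genes past 1.5-fold depend on how many nuclei and genes remain. For WT-CFC against WT-naive (264) they were 48 thinned, 63 with at least 2 Gfap UMIs, 144 with 0 UMIs of other types, 161 with at least 6 astrocyte genes, 1474 with a minimum of 30 counts, 164 without immune UMIs and 132 without sub-clusters led by other types. For KO-CFC against WT-CFC (829) they were 225 thinned, 443 with at least 2 Gfap UMIs, 459 with at least 6 genes, 2634 with 30 counts, 354 without immune UMIs and 536 without those sub-clusters. For KO-CFC against WT-naive (569) they were 124 thinned, 331 with at least 2 Gfap UMIs, 339 with 0 UMIs of other types, 249 with at least 6 genes, 2327 with 30 counts, 132 without immune UMIs and 298 without those sub-clusters. Without those sub-clusters Ralyl reversed to 0.051, Khdrbs3 to 0.22 and Marchf1 to 0.082 in WT-CFC against WT-naive. With at least 6 astrocyte genes Marchf1 was 0.0035 and Cntn5 0.20. Without immune UMIs, which leaves 22 KO-CFC members, Slc4a4 was 0.037 in KO-CFC against WT-CFC. The median of radial glia-like genes in KO-CFC against WT-naive was -0.25 with 30 counts. For Gfap-positive against Gfap-negative nuclei (14 higher, 8 lower), counts higher and lower were 0 and 0 with DESeq2, 0 and 0 with no library block, 47 and 34 with no filter, 16 and 5 matched on UMIs (in KO-CFC the 227 Gfap-negative nuclei were all used, with medians of 2170 and 1907 UMIs, so depth was not matched there), 9 and 1 thinned, 54 and 71 with at least 2 Gfap UMIs, 31 and 119 with 0 UMIs of other types, 3 and 3 without the highest doublet scores, and 0 and 11 without immune UMIs. Leaving out 1 library gave 15 to 53 higher and 9 to 26 lower. At the finer resolution of 1 there were 11 sub-clusters. Causes of these moves were not tested, except that most settings leave fewer nuclei and genes. No paired analysis was possible between conditions because each condition has 1 library.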

Other observations

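Energy and clock genes not described above also differed in size between the libraries. In KO-CFC against WT-CFC, 4 of 11 glycolysis and lactate genes were past 1.5-fold higher and 0 lower in Gfap-positive nuclei, where 12.8% of all genes tested were higher and 15.2% lower. The sum of the list was at 0.40 in members and 0.27 in other barcodes. Ldhb, a lactate dehydrogenase subunit, was at 203 and 87.5 CPM (log2 ratio 1.21), Gapdh at 190 and 93.9 CPM (1.01) and Pgam1 at 96.9 and 53.3 CPM (0.86). Of 8 circadian genes 4 were lower and 0 higher: the nuclear receptors Rora (-0.94) and Rorb (-0.84), and the transcription factors Hlf (-1.13) and Npas2 (-0.69). In WT-CFC against WT-naive, the phosphodiesterases differed in direction: Pde7b (1.06) and Pde8b (0.79) were higher, and Pde4d was lower, at 447 against 757 CPM (-0.76). No test was possible for any of these.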
